A study of Homo sapiens with 12 samples.

Results

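The EGF family was followed across all 12 RNA-seq libraries of the study through 9 genes: the ligands EREG, AREG, HBEGF, TGFA, BTC and NRG1 and the receptors EGFR, ERBB2 and ERBB3. They were picked by gene name from the 19251 genes in the deposited tables, with earlier results of these data known. Counts of calls among them are therefore not those of a set chosen blind. All 9 passed the filter on low values that left 17616 genes for testing. The libraries came from CAOV3, an established ovarian cancer line labelled epithelial high grade serous, and TOV21G, an established line labelled epithelial clear. Both lines are labelled wild type. Cells of each line were either left untreated or given ovarian cancer ascites, the fluid that collects in the abdomen of patients, at 10% of the medium for 16 h. Each of the 4 groups held 3 libraries, and all cells grew in DMEM with 10% serum and antibiotics. The protocols describe no mock fluid for the controls, do not say how many patients gave ascites, and do not say whether replicates were separate cultures, so p-values measure only the spread between these libraries.

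Libraries held 26697609 to 34491304 reads in genes, and 18153 to 18426 genes had at least 1 read in each. Values below are normalised read counts unless another scale is named, and a gene is said to have risen or fallen only where its Benjamini-Hochberg adjusted p from limma, over all tested genes, was under 0.05. Ascites changed 1.73% of tested genes in CAOV3, 0.409% in TOV21G, and differed in effect between the lines for 0.545%. The summed level of 6 epithelial markers was 153270 to 154113 in CAOV3 controls and 176985 to 187539 with ascites. In TOV21G it was 11293 to 12749 and 10698 to 12301, and CDH1, the adhesion protein of epithelial junctions, stood at only 6.29 to 17.3 in the controls. KRT8 (adjusted p = 0.0231) and KRT18 (adjusted p = 0.0102), keratins of simple epithelia, rose with ascites in CAOV3 by limma, and no other epithelial marker passed. CDH1 had the largest difference of the 6 in CAOV3 and in the other direction, at 425 ± 33.1 in controls and 272 ± 8.43 with ascites (SD, n = 3 each), with no overlap (log2 difference -0.64, 95% interval -1.34 to 0.06, limma adjusted p = 0.438). That interval comes from a fit whose spread is shared with the TOV21G libraries, where CDH1 had 6 to 18 reads. KRT8 lost the call without 6 of the 12 libraries in turn and KRT18 without 2, and the part of these marker differences in the CAOV3 results was not tested. Ascites can carry other cells, and the 2 of 8 leukocyte markers in the tables (CD14 and LYZ) summed to 117 to 134 in CAOV3 controls and 101 to 125 with ascites. They summed to 8.39 to 13.0 and 11.6 to 20.4 in TOV21G, where LYZ was at 0 in all 6 libraries. In CAOV3, 4 of 5 fibroblast markers were in the tables and summed to 5540 to 6401 in controls and 5301 to 5454 with ascites, and 4 of 4 mesothelial markers summed to 62.4 to 76.2 and 47.0 to 68.5. In TOV21G the fibroblast sums were 1824 to 2034 and 1769 to 1926, and the mesothelial sums 586 to 659 and 583 to 639. COL3A1 was at 0 in all 6 TOV21G libraries. PECAM1, 1 of 3 endothelial markers and the only one in the tables, did not exceed 11.3 in any library. No tested leukocyte, fibroblast or mesothelial marker passed the threshold for ascites in either line.

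EGF family ligands are made as membrane-bound precursors and are cut free at the cell surface, chiefly by the metalloproteases ADAM17 and ADAM10. EREG, AREG, TGFA, HBEGF and BTC bind EGFR, HBEGF, BTC and EREG can also engage ERBB4, and NRG1 binds ERBB3 and ERBB4. ERBB2 has no known ligand of its own and acts as a preferred partner of the other receptors, while ERBB3 has a weak kinase and signals through such partners to PI3K. In ovarian carcinoma these receptors and ligands feed the RAS to ERK and the PI3K to AKT routes, and several of the ligand genes are themselves known targets of ERK signalling.

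The promoter windows of the 3 ligands that the ascites comparisons turn on are shown because 2 of these genes are neighbours on chromosome 4 and the third is not. Each is the 250 bases before 1 transcription start of the gene in RefSeq, the first listed, on GRCh38.p14. It is written 5′ to 3′ on the strand of the gene. Capitals mark every match, on either strand, to 6 motifs: the TATA box TATAAA, the cAMP response element TGACGTCA, the AP-1 site TGANTCA, the GC box GGGCGG, the CCAAT box and the STAT site TTCNNNGAA. Capitals reading CCGCCC are a GC box on the other strand. EREG lies at chr4:74364895-74365144 (plus strand), AREG at chr4:74444886-74445135 (plus strand) and TGFA at chr2:70553827-70554076 (minus strand). The TGFA gene of GENCODE 29 starts further upstream, at 70554193, so the TGFA window lies within that gene.
EREG: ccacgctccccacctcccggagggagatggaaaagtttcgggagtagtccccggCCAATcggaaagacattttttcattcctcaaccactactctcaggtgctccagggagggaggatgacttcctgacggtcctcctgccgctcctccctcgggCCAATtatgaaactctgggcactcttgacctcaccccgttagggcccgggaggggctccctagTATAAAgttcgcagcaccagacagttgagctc
AREG: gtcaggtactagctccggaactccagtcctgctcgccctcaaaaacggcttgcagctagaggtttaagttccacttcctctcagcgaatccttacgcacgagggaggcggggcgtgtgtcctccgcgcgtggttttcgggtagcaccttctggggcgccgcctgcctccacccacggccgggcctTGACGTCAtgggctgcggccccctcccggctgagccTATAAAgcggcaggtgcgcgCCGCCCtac
TGFA: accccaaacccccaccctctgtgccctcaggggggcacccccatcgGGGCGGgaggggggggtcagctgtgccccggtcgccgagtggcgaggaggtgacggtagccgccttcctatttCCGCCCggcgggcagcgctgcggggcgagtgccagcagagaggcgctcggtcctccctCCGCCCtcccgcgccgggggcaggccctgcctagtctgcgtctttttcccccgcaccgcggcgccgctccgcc
EREG and AREG held a TATA box, whose first base lay at -32 in EREG and -29 in AREG counted from the start. It occurred in 10.7% of the 35116 windows in the table and in none of the TGFA, HBEGF, BTC, EGFR and ERBB2 windows. AREG also held the full cAMP response element, with its first base at -65, which 1.65% of windows held. EREG held 2 CCAAT boxes (32.0% of windows held at least 1), and TGFA held 3 GC boxes (42.6% of windows held at least 1). The AP-1 and STAT sites were each in 6.57% of windows and in none of the 3 printed. ERBB3 and NRG1 were not matched to a window. A match here is a run of letters and was not tested for binding.

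In CAOV3, ascites raised EREG and AREG and lowered ERBB3, so 3 of the 9 genes changed (2 higher, 1 lower), where 1.73% of all tested genes did (0.636% higher, 1.1% lower). The median log2 difference of the 9 genes was -0.09 and that of all tested genes -0.00. EREG (ENSG00000124882, chr4:74365143-74388751, GRCh38, plus strand) encodes epiregulin, a ligand with broad affinity for ERBB receptors. Its values were 2027, 2139 and 2139 in controls and 2744, 2652 and 2590 with ascites. Every ascites library lay above every control, and the mean went from 2102 ± 64.8 to 2662 ± 77.0 (SD, n = 3 each), 26.7% higher. The log2 difference was 0.34 with a standard error of 0.04 (limma, adjusted p = 0.000326). In bulk RNA a change in the number of cells that express a gene and a change in RNA per cell cannot be told apart.

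AREG (ENSG00000109321, chr4:74445134-74455009, plus strand) encodes amphiregulin, a ligand of EGFR. It read 469, 373 and 394 in CAOV3 controls and 613, 589 and 576 with ascites. The groups did not overlap, and the mean rose by 43.8%, from 412 ± 50.2 to 593 ± 18.6 (SD, n = 3 each; log2 difference 0.53, SE 0.09, limma adjusted p = 0.00573). This was the largest rise among the 9 genes in CAOV3. Assemblies before GRCh38 carry a near-identical AREG copy, and the build behind the counts is not given in the sources used here. Reads of AREG could therefore have been split or left uncounted.

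TGFA, the transforming growth factor alpha gene (ENSG00000163235, chr2:70447280-70554193, minus strand), moved the other way. Its CAOV3 values were 3890, 3791 and 3914 in controls and 3665, 3553 and 3593 with ascites, with no overlap. The log2 difference of -0.10 (95% interval -0.19 to -0.01) did not pass the threshold (limma, adjusted p = 0.331). HBEGF, heparin-binding EGF (ENSG00000113070, chr5:140332843-140346631, minus strand), read 186, 216 and 198 in controls and 228, 239 and 216 with ascites. Its groups overlapped and its log2 difference was 0.19 (95% interval -0.02 to 0.39; limma adjusted p = 0.435). BTC, betacellulin (ENSG00000174808, chr4:74744759-74794686, minus strand), was low in this line. It read 6.81, 10.8 and 8.91 in controls and 12, 14.3 and 6.14 with ascites (limma, adjusted p = 0.790). NRG1, neuregulin 1 (ENSG00000157168, chromosome 8), had 1 read over the 3 CAOV3 controls and 0 over the 3 ascites libraries, so no fold is given.

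Among the receptors in CAOV3, ERBB3 (ENSG00000065361, chr12:56076799-56103505, plus strand) fell. Its values were 1654, 1582 and 1726 in controls and 1383, 1117 and 1275 with ascites. All ascites libraries lay below all controls, and the mean went from 1654 ± 71.9 to 1258 ± 134 (SD, n = 3 each; log2 difference -0.40, SE 0.07, limma adjusted p = 0.00872). Without control replicate 3 the adjusted p was 0.0525. EGFR (ENSG00000146648, chr7:55019021-55211628, plus strand) read 5620, 5661 and 5461 in controls and 5094, 5441 and 5065 with ascites. The groups did not overlap, yet the log2 difference of -0.10 (95% interval -0.27 to 0.06) did not pass (limma, adjusted p = 0.637). ERBB2 (ENSG00000141736, chr17:39687914-39730426, plus strand) read 1016, 1021 and 1061, and then 936, 957 and 1023. Its groups overlapped, with a log2 difference of -0.09 (95% interval -0.20 to 0.03; limma adjusted p = 0.545). Of the 9 genes, 2 had all ascites values above all controls and 3 all below, where 11.4% of tested genes lay wholly above and 12.8% wholly below, 24.2% in all.

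**Figure D1:**
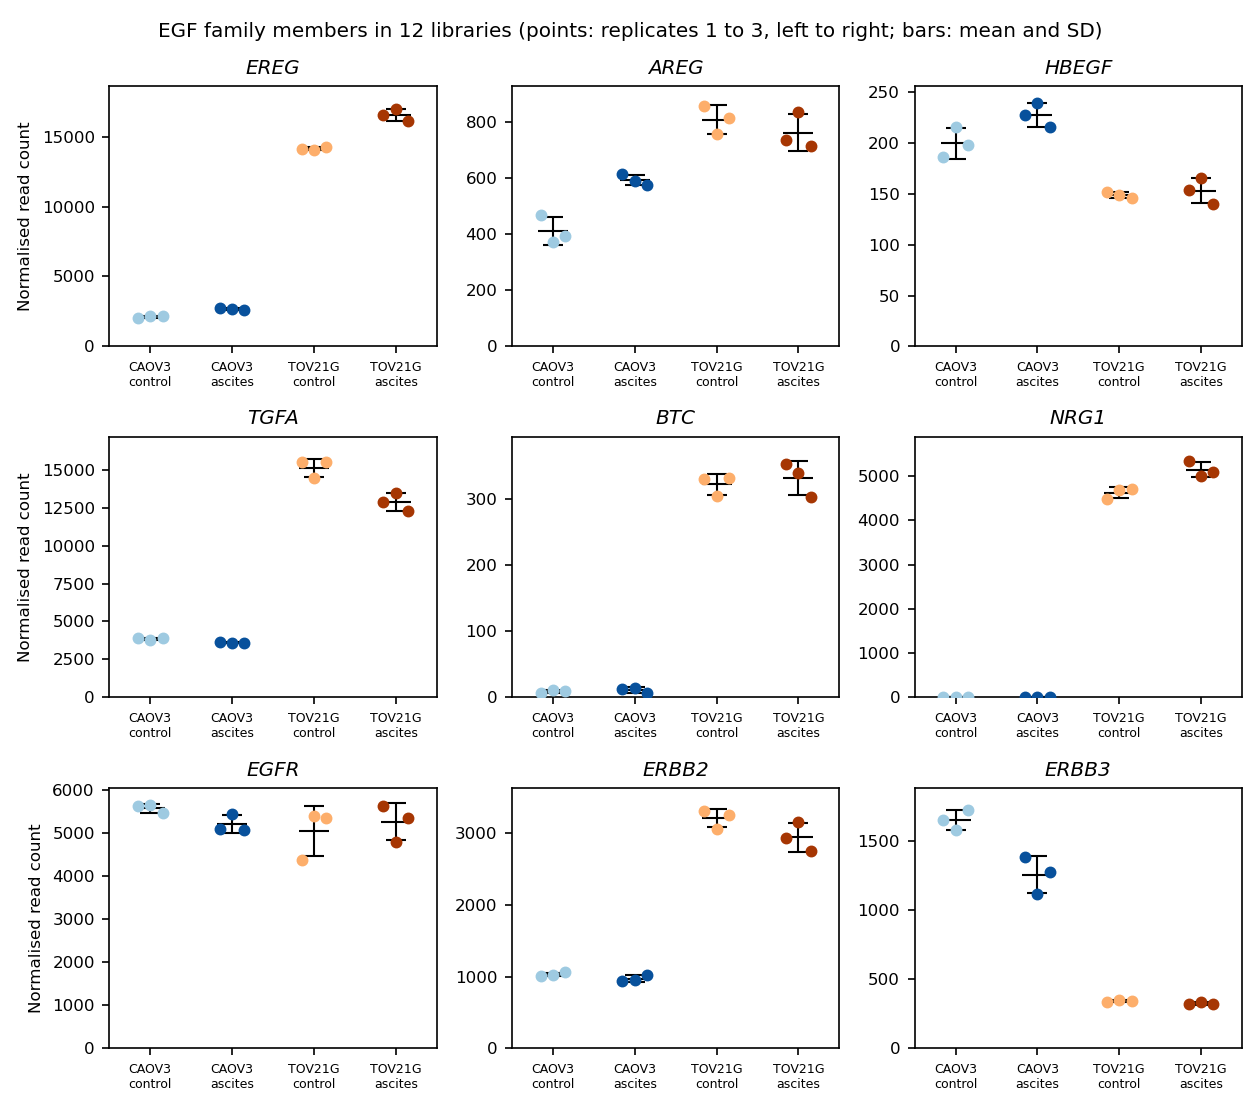
Normalised read count (y axis, linear, from 0) of each of the 9 genes in the 4 groups (x axis); points are libraries, and bars are the group mean and SD of 3 libraries. EREG was higher with ascites in both lines, from 2102 to 2662 in CAOV3 and from 14165 to 16569 in TOV21G, while NRG1 had 1 read in CAOV3 in all.

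In TOV21G, EREG rose again and TGFA fell, so 2 of the 9 genes changed (1 higher, 1 lower), where 0.409% of tested genes did (0.142% higher, 0.267% lower). The median log2 difference of the 9 genes was 0.04 and that of all tested genes -0.02. EREG read 14154, 14040 and 14302 in controls and 16544, 16999 and 16164 with ascites. No ascites library overlapped the controls, and the mean went from 14165 ± 131 to 16569 ± 418 (SD, n = 3 each), 17.0% higher (log2 difference 0.23, SE 0.04, limma adjusted p = 0.0198). The call was lost without control replicate 1 (adjusted p = 0.0512), control replicate 3 (0.0851) or ascites replicate 1 (0.0827), and with TOV21G fitted alone (0.341).

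TGFA in TOV21G read 15477, 14456 and 15485 in controls and 12903, 13488 and 12279 with ascites. Every ascites value lay below every control, and the mean went from 15139 ± 592 to 12890 ± 605 (SD, n = 3 each; log2 difference -0.23, SE 0.04, limma adjusted p = 0.0351). This call held in only 2 of the 12 fits that left out 1 library, which omitted replicate 2 of the TOV21G controls and replicate 2 of its ascites libraries. In the other 10 the adjusted p reached up to 0.159, and with TOV21G fitted alone it was 0.423.

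The other ligands did not pass in TOV21G. AREG read 855, 755 and 813 in controls and 733, 835 and 712 with ascites, overlapping ranges with a log2 difference of -0.09 (95% interval -0.27 to 0.10; limma adjusted p = 0.759). NRG1 read 4484, 4697 and 4701, and then 5340, 5004 and 5102. Its ascites values were all above its controls. The log2 difference was 0.15 with a wide interval of -0.35 to 0.66 (limma, adjusted p = 0.862), in a fit whose spread is shared with CAOV3 libraries near 0 reads. Under DESeq2 the adjusted p was 0.139 and with TOV21G fitted alone 0.672. HBEGF averaged 149 ± 2.75 and 153 ± 12.5 and BTC 322 ± 15.7 and 331 ± 25.8 (SD, n = 3 each), both with overlapping groups.

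Receptor levels in TOV21G gave no call. EGFR read 4366, 5398 and 5359 in controls and 5635, 4787 and 5360 with ascites (log2 difference 0.06, 95% interval -0.10 to 0.23). The lowest control was replicate 1 and the lowest ascites library replicate 2. The long nuclear RNA KCNQ1OT1, measured as a sign of how the TOV21G libraries differed, read 95.4, 656 and 234 in controls and 731, 235 and 1511 with ascites, against 614 to 813 in CAOV3. It was lowest in TOV21G control replicate 1 and ascites replicate 2, the libraries with the least EGFR in their groups, and its part in the EGFR values was not tested. ERBB2 read 3311, 3068 and 3258, and then 2930, 3157 and 2757, with overlap (log2 difference -0.13, 95% interval -0.24 to -0.01, limma adjusted p = 0.502). ERBB3 read 335, 348 and 342, and then 323, 334 and 318. The ERBB3 groups did not overlap, though its log2 difference of -0.07 did not pass (limma, adjusted p = 0.754). In this line 2 of the 9 genes lay wholly above their controls and 2 wholly below, where 4.16% of tested genes lay wholly above and 6.99% wholly below, 11.1% in all.

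**Figure D2:**
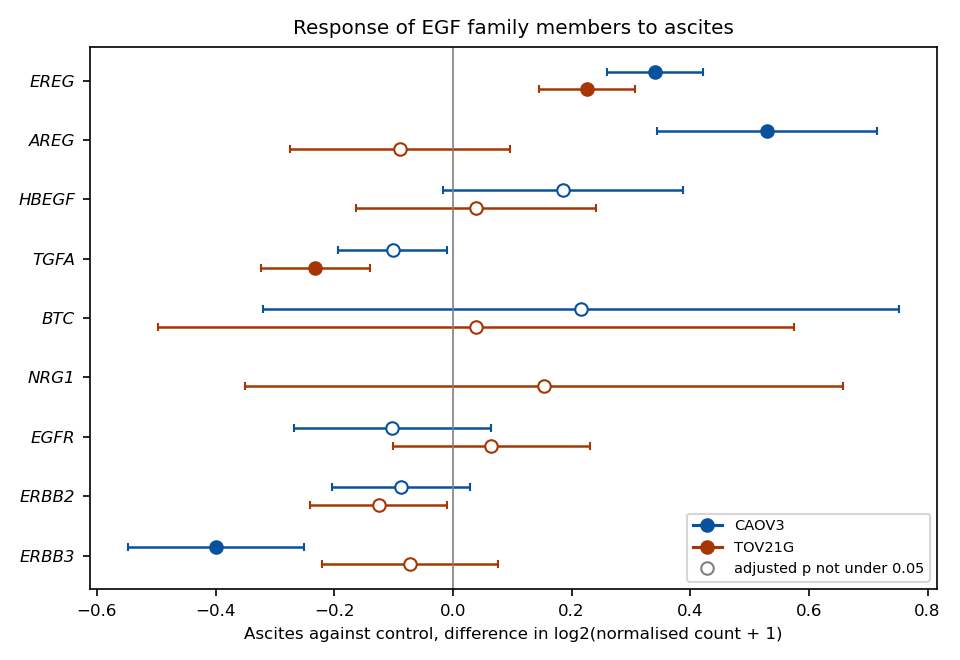
Difference between ascites and control in log2(normalised count + 1) (x axis) for each gene (y axis) in CAOV3 and TOV21G; bars are 95% intervals from limma and filled points have an adjusted p under 0.05. EREG is filled in both lines (0.34 and 0.23), AREG and ERBB3 in CAOV3 (0.53 and -0.40) and TGFA in TOV21G (-0.23); no point is drawn for NRG1 in CAOV3.

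The response itself was compared between the lines by the interaction term of the same fit. Of the 9 genes, AREG differed, with a response 0.62 lower in TOV21G on the log2 scale (log2 difference of responses -0.62, SE 0.12, 95% interval -0.88 to -0.36, limma adjusted p = 0.0421), where 0.545% of tested genes differed (0.238% with a higher response in TOV21G, 0.307% with a lower one). The AREG call was lost without 9 of the 12 libraries in turn, with an adjusted p of up to 0.132, and held when replicate 1 of the CAOV3 controls, or replicate 2 of the controls or of the ascites libraries of TOV21G, was omitted. With a pseudocount of 0.5 its adjusted p was 0.051. For EREG the difference of responses was -0.12 (95% interval -0.23 to -0.00; limma adjusted p = 0.416), and for TGFA it was -0.13 (95% interval -0.26 to -0.00; adjusted p = 0.416). ERBB3 fell in CAOV3 alone, but the difference between the lines of 0.33 (95% interval 0.12 to 0.54) did not pass (limma, adjusted p = 0.232).

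Because EREG was higher and TGFA lower with ascites in both lines, their ratio was taken within each library after dividing each count by the gene's exon length. The ratio of EREG to TGFA per kilobase was 0.452, 0.490 and 0.474 in CAOV3 controls and 0.650, 0.648 and 0.626 with ascites. In TOV21G it was 0.794, 0.843 and 0.802 in controls and 1.11, 1.09 and 1.14 with ascites. TGFA was thus the higher of the pair in all 9 other libraries, and EREG in the 3 TOV21G ascites libraries. The ratio was chosen after these values were seen and is given without a test.

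**Figure D3:**
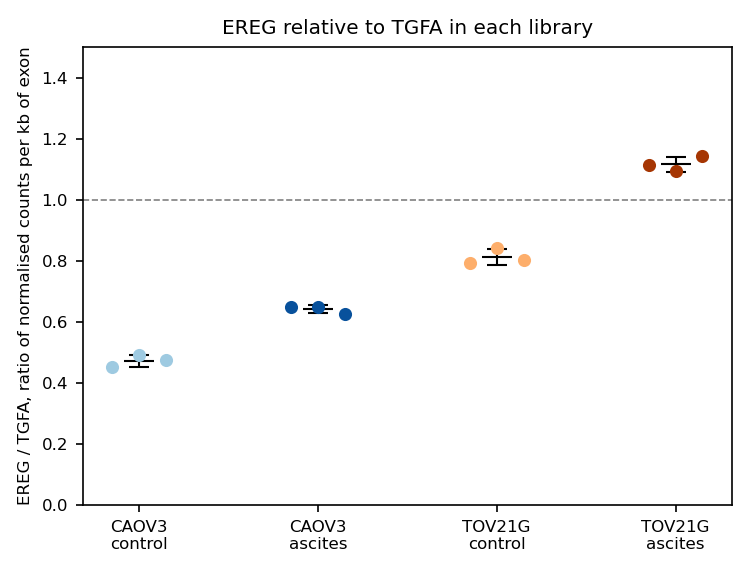
Ratio of EREG to TGFA, each as normalised count per kilobase of exon (y axis, from 0), in the 12 libraries by group (x axis); points are libraries, bars the mean and SD of 3, and the dashed line marks equal levels. The means were 0.472 and 0.641 in CAOV3 and 0.813 and 1.12 in TOV21G, and only the TOV21G ascites libraries lie above the line.

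Untreated TOV21G and CAOV3 cells differed in the levels of their ligands. Of the 9 genes, 8 differed between the control groups, 6 higher in TOV21G and 2 lower, where 82.2% of all tested genes differed (40.8% higher, 41.4% lower), so that this count stands near the background. EREG averaged 14165 ± 131 in TOV21G and 2102 ± 64.8 in CAOV3 (SD, n = 3 each), 6.74-fold higher (log2 difference 2.75, SE 0.04, limma adjusted p = 9.34e-16). TGFA was 3.92-fold higher in TOV21G (log2 difference 1.97, limma adjusted p = 5.29e-14) and AREG 1.96-fold (0.97, adjusted p = 1.26e-07). BTC was 36.5-fold higher, at 322 ± 15.7 against 8.82 ± 1.97 (SD, n = 3 each; limma adjusted p = 2.26e-10). NRG1 separated the lines most: 13857 reads over the TOV21G controls against 1 read over the CAOV3 controls, a depth-scaled ratio of 13071 (exact binomial 95% interval 2346 to 516302, counting error only). With ascites the reads were 17803 against 0, at least 4929-fold higher in TOV21G when 3 reads over the group are taken as the floor. HBEGF was the one ligand higher in CAOV3, at 200 ± 15.2 against 149 ± 2.75 (SD, n = 3 each; log2 difference -0.42, limma adjusted p = 0.000914).

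Receptor levels at baseline differed in their make-up. ERBB2 was 3.11-fold higher in TOV21G (3212 ± 128 against 1032 ± 24.8, SD, n = 3 each; limma adjusted p = 3.24e-12). ERBB3 was lower there, at 342 ± 6.57 against 1654 ± 71.9 (SD, n = 3 each; log2 difference -2.27, limma adjusted p = 1.4e-12). EGFR averaged 5041 ± 585 in TOV21G and 5581 ± 106 in CAOV3 (SD, n = 3 each), a log2 difference of -0.15 (95% interval -0.32 to 0.01) that did not pass (limma, adjusted p = 0.08). Without TOV21G control replicate 2 or 3 the EGFR adjusted p was 0.0326 or 0.045, and without control replicate 1 it was 0.420. PGAP3 and MIEN1 overlap ERBB2 and EGFR-AS1 overlaps EGFR on the opposite strand, and TGFA-IT1 overlaps TGFA and AC034102.2 overlaps ERBB3 on the same strand. Whether counting used strand is not given in the sources used here, so reads of such pairs cannot be told apart.

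Levels can be compared between genes only per exon length. On the scale of normalised count per kilobase of exon, TGFA led the ligands in CAOV3 controls at 779 ± 13.2, followed by EREG at 368 ± 11.3, AREG at 249.97 ± 30.5, HBEGF at 66.3 ± 5.02, BTC at 3.13 ± 0.701 and NRG1 at 0.0334 (SD, n = 3). No ranges of neighbours in that order met within 1 SD. TOV21G controls had TGFA at 3050.5 ± 119, EREG at 2478 ± 22.9, AREG at 490.1 ± 30.6, NRG1 at 409 ± 11, BTC at 114 ± 5.59 and HBEGF at 49.4 ± 0.912 (SD, n = 3). TGFA and EREG both ranked above 98.1% of genes in the tables in that group. With ascites the TOV21G order began with EREG at 2898 ± 73.2 and TGFA at 2597 ± 122, and AREG (461 ± 40.0) and NRG1 (454 ± 15.2) lay within 1 SD of each other (SD, n = 3).

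The sum of the 6 ligands per kilobase was 1440 to 1487 in CAOV3 controls and 1600 to 1670 with ascites, and 6399 to 6696 and 6338 to 6815 in TOV21G. The CAOV3 ranges did not overlap and the TOV21G ranges did. In CAOV3, TGFA made up 52.7 to 53.6% of that sum in controls and 44.1 to 45.2% with ascites, while AREG went from 15.7 to 19.1% to 21.8 to 22.3%. In TOV21G, EREG went from 37.1 to 38.4% to 43.6 to 44.6%. The 3 receptors per kilobase summed to 726 to 730.2 in CAOV3 controls and 645 to 651 with ascites, against 707 to 781 and 725 to 770 in TOV21G. EGFR was the largest share of the receptor sum in each group, from 53.4% in TOV21G controls to 64.0% in CAOV3 with ascites. ERBB2 was 41.5% of it in TOV21G controls and 13.7% in CAOV3 controls, and ERBB3 5.03% and 25.1%.

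**Figure D4:**
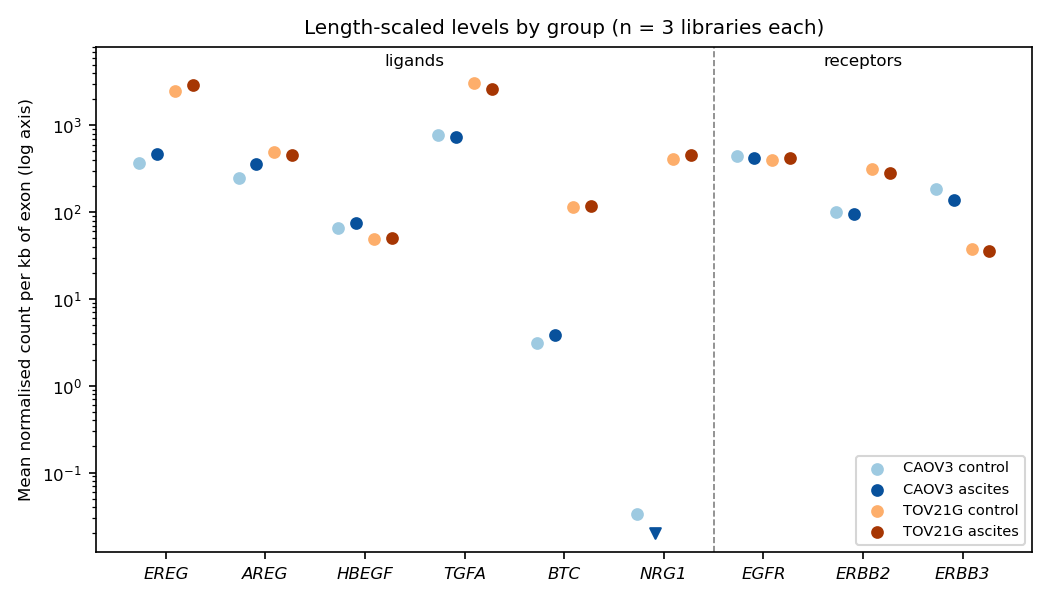
Mean normalised count per kilobase of exon (y axis, log scale) of the 6 ligands and 3 receptors (x axis) in the 4 groups of 3 libraries; the triangle marks NRG1 at 0 in CAOV3 with ascites. EREG and TGFA stand highest, at 2478 to 3050.5 in TOV21G, while EGFR stays between 403 and 446 in all groups.

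EREG, AREG and BTC share a stretch of chromosome 4, so the genes within 500 kb of EREG were examined. Of 19 annotated genes 9 were in the tables, all 9 were tested, and 6 of them are not among the ligands studied. In CAOV3, 1 of those 6 rose and none fell, and in TOV21G none passed by limma. The gene that rose was CXCL2, a neutrophil-attracting chemokine, at 7.38 ± 2.84 in controls and 16.5 ± 2.85 with ascites (SD, n = 3 each; log2 difference 1.11, limma adjusted p = 0.0205). That call was lost without CAOV3 ascites replicate 1 (adjusted p = 0.0891) or 2 (0.0582), and under edgeR (0.0571) and DESeq2 (0.0723). CXCL2 in TOV21G averaged 489.6 ± 21.8 in controls and 747.7 ± 12.5 with ascites (SD, n = 3 each). Its log2 difference there was 0.61 with a standard error of 0.217 (limma, adjusted p = 0.414). The spread in that fit is shared with the CAOV3 libraries, where CXCL2 was low, so a response in CAOV3 alone is not shown. At baseline 5 of the 6 were higher in TOV21G and 1, MTHFD2L, was lower, where 82.2% of all tested genes differed. CXCL5, another chemokine, averaged 11245 in TOV21G controls and 0.359 in CAOV3 controls, and CXCL1 averaged 6974 and 0.378.

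Genes whose levels followed a ligand or receptor were ranked by the correlation of log2 values over the 12 libraries, after centring on the mean of each line, among 11886 genes with a mean of at least 100. These correlations share libraries and depth and carry no p. The centring left the difference between ascites and control in the values. The correlations therefore partly restate that contrast and are no separate evidence of a link between genes. EREG was followed most closely by ETS1, a transcription factor (r = 0.96), ZNF697 (0.95), IRF1, an interferon response factor (0.93), HK2, a hexokinase (0.93), and IL6ST, the shared receptor subunit for IL6 cytokines (0.93). ETS1, IRF1, HK2 and IL6ST themselves rose with ascites in CAOV3 (limma adjusted p = 0.00391, 0.000859, 0.0018 and 0.0056). ZNF697 did not pass there (0.0764), and none of these genes passed in TOV21G. Within the family, EREG had r = 0.72 with HBEGF, 0.64 with AREG, -0.72 with TGFA and -0.78 with ERBB3. EGFR was followed by the kinase WNK1 (0.99), the acetyltransferase CREBBP (0.98), the ubiquitin ligase CBL (0.98), AAK1 (0.98) and CHD8 (0.97). None of the genes following EGFR passed for ascites in either line by limma. In TOV21G, CBL read 4000, 5583 and 5304 in controls and 5765, 4525 and 5562 with ascites. Like EGFR, it was lowest in control replicate 1 and ascites replicate 2. The part of such differences between TOV21G libraries in these correlations was not tested.

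Of 6 further family members, NRG2, NRG4 and ERBB4 were in the tables, and NRG2 and NRG4 were tested. Neither passed in CAOV3 in the joint fit, where NRG4, a ligand of ERBB4, averaged 372 ± 9.74 in controls and 302 ± 7.05 with ascites, with no overlap (SD, n = 3 each; limma adjusted p = 0.507). The spread in that fit is shared with TOV21G libraries at 0 or 1 read of NRG4. With CAOV3 fitted alone 1 further member passed, where 574 of 15808 tested genes were higher and 721 lower. None passed in CAOV3 in the remaining alternative fits. NRG4 was at 0 reads in all TOV21G controls and at 1 read in each TOV21G ascites library. That passed limma's threshold (adjusted p = 0.0427) but lies at the floor of 3 reads over the group, so no fold is given, and the call was lost in 17 of 20 alternative fits. In controls NRG4 had 1051 reads in CAOV3 and 0 in TOV21G, at least 371-fold higher in CAOV3 with the same floor.

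None of the 9 tested genes for ligand release passed for ascites in either line by limma in the joint fit. In each line 1 had an unadjusted p under 0.05, where 2280 of all 17616 tested genes did in CAOV3 and 1615 in TOV21G. With CAOV3 fitted alone 2 passed there, beside 574 higher and 721 lower of 15808 tested genes. In CAOV3 2 also passed under edgeR and 2 under DESeq2. Without TOV21G ascites replicate 2, 1 passed in TOV21G. In CAOV3, ADAM19 averaged 735.9 ± 44.6 in controls and 880.7 ± 49.97 with ascites, and TIMP3 1824 ± 101 and 1423 ± 124 (SD, n = 3 each). Neither pair of groups overlapped (limma adjusted p = 0.107 and 0.547). TIMP3 had 0 or 1 read in the TOV21G libraries. At baseline 7 of the 9 were higher in TOV21G and 2 lower, where 82.2% of all tested genes differed. ADAM10 averaged 9971 ± 270.2 in TOV21G controls and 4991 ± 273 in CAOV3 controls, and ADAM17 2661 ± 129 and 1956 ± 73.6 (SD, n = 3 each). Among 22 adaptors and first kinases none passed for ascites in either line by limma in the joint fit. At an unadjusted p under 0.05 there were 7 in CAOV3 and 4 in TOV21G, beside the same 2280 and 1615 of all tested genes. With CAOV3 fitted alone 3 passed, beside 574 higher and 721 lower of all 15808 tested genes. Without CAOV3 ascites replicate 1, 1 passed in CAOV3, beside 70 higher and 119 lower of 17536. At baseline 11 were higher in TOV21G and 8 lower (86.4% of the list, against 82.2% of all tested genes), with GAB1, a docking protein for these receptors, at 1344 ± 64.4 against 46.0 ± 2.48 (SD, n = 3 each; log2 difference 4.84).

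Of 19 genes that attenuate the receptors, 1 changed in CAOV3 (1.73% of all tested genes did) and none in TOV21G by limma. In TOV21G 3 had an unadjusted p under 0.05, where 1615 of all 17616 tested genes did. PTPRJ, a receptor phosphatase that acts on EGFR, fell in CAOV3 from 4830 ± 81.5 to 3879 ± 79.4 (SD, n = 3 each; log2 difference -0.32, limma adjusted p = 0.00169). In TOV21G it averaged 13405 ± 525 and 14287 ± 649, and the difference between the lines' responses passed (0.41, limma adjusted p = 0.00930). At baseline 5 of the 19 were higher in TOV21G and 10 lower, 78.9% of the list against 82.2% of all tested genes. ERRFI1, which binds and inhibits the EGFR kinase, averaged 14680 ± 139 in CAOV3 controls and 467 ± 58.2 in TOV21G controls (SD, n = 3 each; log2 difference -4.98). With ascites it averaged 14896 ± 134 in CAOV3 and 465 ± 26.1 in TOV21G (SD, n = 3 each).

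Of 19 genes taken as output of ERK signalling, 2 rose and 2 fell in CAOV3, where 1.73% of all tested genes changed (0.636% higher, 1.1% lower), with a median log2 difference of -0.08 against -0.00 over all tested genes. SPRED3 rose from 301 ± 8.93 to 476 ± 48.9 (SD, n = 3 each; log2 difference 0.65, limma adjusted p = 0.000257), and FOSL1, a subunit of AP-1, from 4747 ± 180.3 to 5831 ± 78.8 (0.30, limma adjusted p = 0.0107). SPRY4, a feedback inhibitor of receptor kinase signalling, fell by 0.21 on the log2 scale (limma adjusted p = 0.0266), and ETV5, an ETS factor, fell by 0.18 (adjusted p = 0.0421). FOSL1 lost the call without 2 of the 12 libraries in turn, SPRY4 without 6 and ETV5 without 8. The CAOV3 count of 4 was 10 with that line fitted alone, where 574 of 15808 tested genes were higher and 721 lower. It was 5 under DESeq2, 1 with the replicate block and 1 to 4 with 1 library left out. In CAOV3, 6 of the 19 lay wholly above their controls and 7 wholly below, where 11.4% and 12.8% of tested genes did. In TOV21G, PHLDA1 rose from 8368 ± 186 to 9661 ± 291 (SD, n = 3 each; log2 difference 0.21, limma adjusted p = 0.0423) and no other gene of the list passed; that call was lost in each of the 12 fits with 1 library left out. FOSL1 in TOV21G averaged 2465 ± 110 and 2973 ± 221 (SD, n = 3 each; limma adjusted p = 0.0501). SPRED3 responded differently in the lines (difference of responses -0.67, limma adjusted p = 0.00930), at 744 ± 18.7 and 737 ± 28.2 in TOV21G. At baseline 4 of the 19 genes were higher in TOV21G and 13 lower, 89.5% of the list against 82.2% of all tested genes (40.8% higher, 41.4% lower).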

How the data were processed

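RNA-seq libraries were made from 12 samples of 2 lines; the genome build, annotation and strandedness are not given in the sources used here. The submitters' processing notes name Trim Galore, cutadapt, STAR, HTSeq and DESeq, with no versions. The deposited values are a signal, read counts per gene that the authors divided by a size factor per library. Dividing by the step between low values gave back whole reads within 0.01 for 100% of values, so depth is known. Of 19251 gene IDs, 19087 were named from a gene table and 19223 placed with GENCODE 29 (GRCh38).

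Values were analysed as log2(value + 1) with limma 3.58.1 in R 4.3.3 (lmFit and eBayes with trend). The 12 libraries were fitted jointly with 4 group means, and genes with a value of at least 10 in at least 3 libraries were kept. Log2 differences are on that scale and understate changes of low genes. The fit was run on simulated counts with 1 spread for all libraries, and only its CAOV3 contrast was scored. That run therefore does not bear on the TOV21G calls or on the differences of responses. Alternatives were pseudocounts of 0.5 and 5, other filters, TMM scaling, edgeR 4.0.16 and DESeq2 1.42.0 on the recovered reads, each line alone, the replicate number as a block and leaving out each library. Replicates of a group differed by more than sampling noise, so none was counted as a duplicate. All 9 family members were named; other genes came from lists of pathway genes, cell markers and neighbours and were named where they passed a test or to illustrate a list. Members and lists were chosen with earlier results of these data known. Intervals cover 95% and the floor for 0 reads is 3.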

Additional observations from a re-analysis of the deposited data

Results flagged for a closer look

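Responses to ascites that differed between the lines, by limma's interaction term over all tested genes, are listed here as TOV21G minus CAOV3 on the log2 scale. Among the family members this was AREG, at -0.62 (adjusted p = 0.0421), with a response of 0.53 in CAOV3 and -0.09 in TOV21G. SPRED3, of the ERK output list, stood at -0.67 (adjusted p = 0.00930), and PTPRJ, a phosphatase of the attenuation list, at 0.41 (adjusted p = 0.00930). KRT8, a keratin of simple epithelia, stood at -0.41 (adjusted p = 0.0483), a call lost in 12 of 20 alternative fits. NRG4 stood at 1.2 (adjusted p = 0.0496), on 0 reads in the TOV21G controls and 1 read in each TOV21G ascites library, and lost the call in 17 of 20.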

How the results depend on the processing

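Of 697 values of single family members under the alternative fits, 659 kept their direction and their side of the threshold, 29 lost a call, 2 gained one and 7 changed sign. All losses were of ascites calls. EREG lost its TOV21G call in 5 of 21 fits and TGFA in 12 of 21. The AREG difference of responses was lost in 11 of 20, and ERBB3 in CAOV3 in 1 of 21. EREG and AREG in CAOV3 kept their calls in all 21 alternatives, and ERBB3 in 20 of 21. Members called in TOV21G numbered 2, and 0 with each line fitted alone or with the replicate number as a block, and 0 to 2 with 1 library left out. For the difference of responses the count was 1, and 0 with a pseudocount of 0.5 or with the block, and 0 to 1 with 1 library left out. Counts for CAOV3 (3) and for the controls (8) stayed within 1.5 times. The 7 sign changes were all of values that did not pass, with 1 library left out. Over those fits the log2 difference ranged from -0.0065 to 0.54 for BTC in CAOV3, from -0.018 to 0.10 for HBEGF, -0.0060 to 0.10 for BTC and -0.035 to 0.13 for EGFR in TOV21G, and the difference of responses from -0.51 to 0.045 for BTC and from -0.088 to 0.0094 for ERBB2. The cause was not tested.

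Replicate numbers did not pair the libraries: deviations of same-numbered control and ascites libraries correlated at -0.07, 0.06 and 0.01 in CAOV3 and -0.16, -0.42 and 0.07 in TOV21G, and not every library correlated best with its own number. With the replicate block, all-gene counts of higher and lower genes went from 112 and 193 to 49 and 67 in CAOV3, from 25 and 47 to 5 and 8 in TOV21G, and from 42 and 54 to 1 and 8 for the difference of responses. Of the ascites calls named in the text, EREG, AREG, ERBB3 and SPRED3 in CAOV3 passed with the block. PTPRJ (adjusted p = 0.0547), CXCL2 (0.0732), FOSL1 (0.0858), KRT18 (0.117), SPRY4 (0.164), ETV5 (0.179) and KRT8 (0.185) in CAOV3 did not, nor did EREG (0.286), NRG4 (0.299), TGFA (0.322) and PHLDA1 (0.379) in TOV21G, nor the differences of responses of SPRED3 (0.119), PTPRJ (0.178), AREG (0.211), NRG4 (0.334) and KRT8 (0.364), all by limma. Fitted alone, CAOV3 gave 574 and 721 and TOV21G 10 and 12. In CAOV3 edgeR gave 202 and 309 and DESeq2 188 and 319, and in TOV21G 51 and 63 and 52 and 98. With 1 library left out, TOV21G ranged from 8 and 16 (without control replicate 3) to 47 and 90 (without ascites replicate 2). Depth limited NRG1 and BTC in CAOV3 and NRG4 in TOV21G.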
